A study of Mus musculus with 8 samples.

Results

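The genes described here carry out antigen presentation by MHC class II, and they were read by symbol from a table of 32098 genes measured by RNA sequencing of whole mouse tumours. All 10 listed genes were found: H2-Aa, H2-Ab1, H2-Eb1, H2-DMa, H2-DMb1, H2-Oa, H2-Ob, Cd74, Ciita and Ctss. The tumours had been grown from 4T1, a mammary carcinoma line established from a BALB/c mouse, and the labels give the genotype of every sample as WT. In 4 tumours (RI 1, 2, 4 and 5) radiation had been combined with an immune checkpoint inhibitor, and in 4 (ICI 1, 2, 3 and 4) the inhibitor had been given alone, so that every tumour had received an inhibitor and none was untreated. The labels name neither the inhibitor, the radiation dose, the host strain, the age of the mice nor whether a tumour lay in the irradiated field, and nothing in them ties a tumour to an animal of its own. Each p-value is thus set by how these 8 samples varied, some of which could be technical.

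MHC class II molecules are pairs of an alpha and a beta chain that show peptides from the endosome to CD4+ T cells. They are made mostly by dendritic cells, macrophages and B cells, and other cells can make them under interferon gamma. The invariant chain (Cd74) fills the groove of a new molecule, cathepsin S (Ctss) trims it, and H2-DM then swaps the remaining fragment for a peptide, a step that H2-O restrains. The coactivator CIITA switches on the chain genes, Cd74 and H2-DM by docking on factors that sit on a pair of promoter elements, the X box (RFX) and the Y box (NF-Y).

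These promoter elements could be read directly for 7 of the 10 genes, which had a RefSeq promoter window on GRCm38.p6 (C57BL/6J), running from 250 bases before to 50 bases after a start site. No window was matched for H2-Ab1, Cd74 or Ciita. The stretches holding both elements are shown because they are a sequence feature that 5 of the genes were found to share and that the choice of genes did not use. Capitals mark the Y box ATTGG and, upstream of it, the X box core where its consensus matched (H2-Eb1 and H2-DMb1) or otherwise GNAAC, each read 5′ to 3′ on the strand of the gene.
H2-Aa: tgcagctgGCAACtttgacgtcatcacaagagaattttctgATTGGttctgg
H2-Eb1: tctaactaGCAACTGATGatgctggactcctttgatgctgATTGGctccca
H2-DMb1: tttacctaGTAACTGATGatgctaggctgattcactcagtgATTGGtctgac
H2-Oa: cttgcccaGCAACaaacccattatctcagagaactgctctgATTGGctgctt
H2-Ob: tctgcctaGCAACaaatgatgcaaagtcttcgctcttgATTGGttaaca

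The stretches lie at chr17:34287861-34287912 on the minus strand for H2-Aa, and on the plus strand at chr17:34305768-34305818 for H2-Eb1, chr17:34153089-34153140 for H2-DMb1, chr17:34092295-34092346 for H2-Oa and chr17:34238810-34238858 for H2-Ob. In these 5 genes GNAAC began 30 to 33 bases before ATTGG, and ATTGG itself began 43 to 61 bases before the start site. On both strands ATTGG was found in 37.4% and the X box core in 3.54% of all 32851 promoter windows. The letters GNAAC followed by ATTGG at a distance of 25 to 45 bases on either strand, a search set after the sequences had been read, were found in 3.41% of them. The windows of H2-DMa, which has 2 annotated starts, and of Ctss held no such pair. A match describes the letters only.

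Before the values, some facts on the libraries bear on them. The depth recovered from the steps of the values ran from 27012800 to 42622400 fragments in RI tumours and from 32942400 to 42551000 in ICI tumours. The mitochondrial genome took 2.56% to 3.22% of the fragments in RI tumours and 4.37% to 8.14% in ICI tumours, and its part in the results was not tested beyond the rescaling given with H2-Aa and Ctss. ICI 1 stood apart in that 6 neutrophil markers summed to 21090 FPKM there, against 207 to 632 FPKM in the other ICI tumours and 17.1 to 77.5 FPKM in RI tumours. In RI 4, 3 rows that include a ribosomal RNA-like gene made up 60.7% of all FPKM, whereas they held 1.02% to 1.54% in the other RI tumours and 0.968% to 2.25% in ICI tumours. The keratins Krt8 and Krt18 of the carcinoma cells were high in every tumour (at least 333 FPKM), whereas Epcam lay between 0 and 1.06 FPKM in RI tumours and between 0.0372 and 5.02 FPKM in ICI tumours.

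The comparison asks whether tumours given radiation on top of the inhibitor carried more or less of the class II machinery. The peptide-binding chains, the invariant chain and H2-DM were lower on average in RI tumours. Their level was 0.454 to 0.687 times that of ICI from the means of log2(FPKM + 1), and 0.475 to 0.698 times from mean FPKM. Even so, the groups overlapped for every one of the 10 genes. Of the 8 genes with enough signal to be tested, 1 fell (H2-Aa), 0 rose and 7 did not pass. Among all 13439 genes tested 17.7% passed, 6.6% of them as lower and 11.1% as higher in RI, so 1 gene of 8 is near the background. The 8 genes had a median difference of −0.68 on the log2 scale against 0.0115 for all genes tested, with 6 of them lower and 2 higher. At an unadjusted limma p under 0.05 there were 4 of the 8, all lower in RI. Of all genes tested 35.9% reached this in either direction and 15.5% as lower in RI. The 4 genes had similar profiles over the tumours, so they do not count as independent. In whole tumours, fewer cells of a type and less RNA per cell cannot be told apart.

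H2-Aa, the alpha chain of the I-A molecule (chromosome 17, 34282744 to 34287823, minus strand), measured 55.8, 21.9, 43.3 and 21.1 FPKM in RI 1, 2, 4 and 5, against 88.0, 52.7, 91.5 and 66.8 FPKM in ICI 1, 2, 3 and 4. All RI tumours but RI 1 lay below every ICI tumour, and RI 1 exceeded ICI 2 only. The mean was 35.5 ± 17 FPKM in RI and 74.7 ± 18.3 FPKM in ICI (SD, n = 4 each), a difference of −1.14 on the log2(FPKM + 1) scale with a standard error of 0.33 (limma adjusted p = 0.0446). An exact permutation test of the same difference, two-sided, gave p = 0.0571, where the smallest p that 4 against 4 tumours allow is 0.0286. The call held without ICI 2 and without RI 1, and was lost without ICI 1, ICI 3, ICI 4, RI 2, RI 4 or RI 5, where the limma adjusted p ran from 0.0572 to 0.110. It also did not pass with no filter (limma adjusted p = 0.135), with TPM (0.218) or after rescaling without mitochondrial and rRNA-like rows (0.111). Limma voom on recovered fragments gave 0.0501, the replicate number as a block 0.119, and the block with length and GC trends removed 0.102. Without both ICI 1 and RI 4 the adjusted p was 0.0758. TPM divides by summed FPKM, of which rRNA-like rows held 60.7% in RI 4. Of all 21 other settings tried 8 kept the call, and the adjusted p ran from 0.0317 to 0.218.

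H2-Ab1, the beta chain that pairs with H2-Aa (34257689 to 34269419, plus strand), measured 77.4, 26.5, 57.8 and 23.5 FPKM in RI 1, 2, 4 and 5, against 99.9, 64.0, 112 and 65.0 FPKM in ICI 1, 2, 3 and 4. Again RI 1 alone overlapped the ICI range. The difference was −0.99 with a 95% interval from −1.88 to −0.11 and did not pass (limma adjusted p = 0.103). H2-Eb1, the beta chain of the I-E molecule (34305867 to 34316674, plus strand), measured 119, 46.4, 94.1 and 45.1 FPKM in RI 1, 2, 4 and 5, against 120, 92.3, 205 and 125 FPKM in ICI 1, 2, 3 and 4. Here RI 2 and RI 5 lay below all ICI tumours, RI 1 and RI 4 lay inside their range, and the difference was −0.89 (95% interval −1.70 to −0.07, limma adjusted p = 0.113). An antisense gene model overlaps H2-Eb1, and since no source used here says that the counting used strand, the reads of both cannot be told apart.

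The alpha chain partner of H2-Eb1 is H2-Ea, which is not among the 10 genes and is annotated on GRCm38 as a polymorphic pseudogene. The C57BL/6 strain of the reference carries a deletion at its promoter, whereas BALB/c mice make an I-E molecule. H2-Ea was abundant in every tumour, with 160, 54.4, 143 and 38 FPKM in RI 1, 2, 4 and 5, against 167, 165, 329 and 145 FPKM in ICI 1, 2, 3 and 4. Its order among RI tumours was that of H2-Eb1 and both genes peaked in ICI 3, and its difference of −1.19 did not pass (limma adjusted p = 0.115). The H2 chain genes are highly polymorphic, and what the alleles of these tumours did to mapping on the C57BL/6 reference was not tested.

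**Figure D1:**
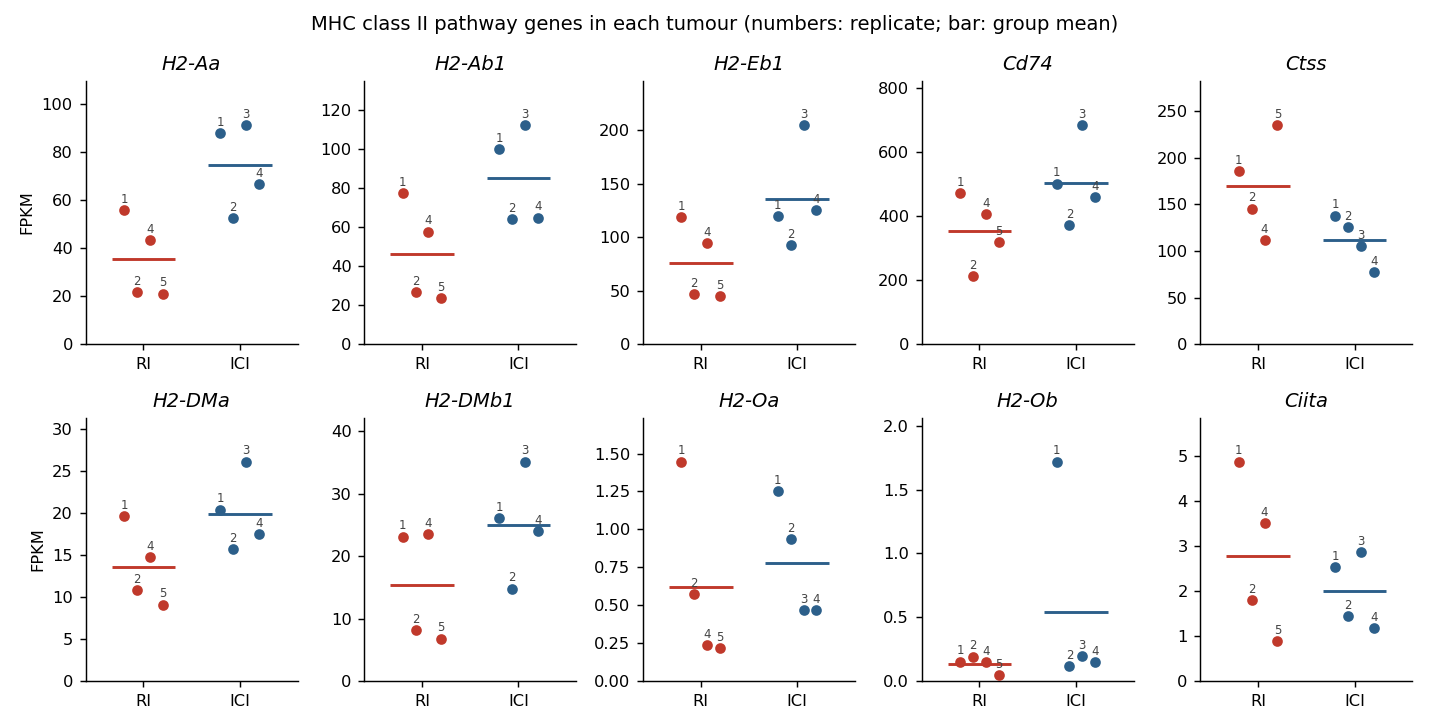
FPKM of the 10 class II pathway genes in each tumour, with RI tumours in red and ICI tumours in blue, the replicate number beside each point and a bar at the group mean, on a separate axis from 0 for each gene. The 3 chain genes and H2-DM show RI 2 and RI 5 as the lowest tumours, with RI 1 and RI 4 near or inside the ICI range, while Ctss and Ciita have their highest values in RI.

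Cd74, the invariant chain (chromosome 18, 60803848 to 60812652), was the most abundant of the 10 genes per length, with 471, 212, 405 and 319 FPKM in RI 1, 2, 4 and 5, against 501, 371, 684 and 459 FPKM in ICI 1, 2, 3 and 4. RI 2 and RI 5 lay below all ICI tumours, and RI 1 and RI 4 within them. The difference was −0.54 (95% interval −1.18 to 0.10, limma adjusted p = 0.201). Cathepsin S (Ctss, chromosome 3, 95526786 to 95556403) ran the other way, with 185, 146, 112 and 235 FPKM in RI 1, 2, 4 and 5, against 138, 126, 105 and 77.3 FPKM in ICI 1, 2, 3 and 4. All RI tumours but RI 4 exceeded every ICI tumour, and RI 5, the lowest tumour for the chains, had the highest Ctss. The difference of 0.58 did not pass (95% interval −0.03 to 1.18, limma adjusted p = 0.155), but it passed without both ICI 1 and RI 4 (0.87, limma adjusted p = 0.0355) and after rescaling without mitochondrial and rRNA-like rows (0.91, adjusted p = 0.0164). That rescaling moved the median difference of all genes to 0.285, and 90.0% of its calls were up.

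The H2-DM subunits were also lowest in RI 2 and RI 5. H2-DMa (34119541 to 34139101, plus strand) measured 19.6, 10.8, 14.7 and 9.08 FPKM in RI 1, 2, 4 and 5, against 20.4, 15.7, 26.1 and 17.4 FPKM in ICI 1, 2, 3 and 4. H2-DMb1 (34153072 to 34160230, plus strand) measured 23.1, 8.16, 23.6 and 6.77 FPKM in RI 1, 2, 4 and 5, against 26.1, 14.8, 35.2 and 24.1 FPKM in ICI 1, 2, 3 and 4. For H2-DMa only RI 1 lay inside the ICI range, and for H2-DMb1 both RI 1 and RI 4 did. Neither difference passed, at −0.55 for H2-DMa (limma adjusted p = 0.134) and −0.80 for H2-DMb1 (limma adjusted p = 0.214). H2-DMb2, the neighbouring near copy of H2-DMb1, differed by −0.99 (limma adjusted p = 0.120), and because the counting could have split reads between the copies the value of each is uncertain.

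H2-O, the restraint on H2-DM that is known mainly from B cells, was close to the detection limit. H2-Oa (34092340 to 34095234, plus strand) had 55, 26, 12 and 13 fragments in RI 1, 2, 4 and 5, against 58, 53, 24 and 28 in ICI 1, 2, 3 and 4, equal to 0.217 to 1.45 FPKM in RI and 0.465 to 1.25 FPKM in ICI. H2-Ob (34238903 to 34254414, plus strand) had 22, 33, 29 and 11 fragments in RI 1, 2, 4 and 5, against 305, 25, 38 and 34 in ICI 1, 2, 3 and 4. Apart from ICI 1, with 1.72 FPKM, no tumour had more than 0.192 FPKM of H2-Ob. Both genes were below the filter of at least 1 FPKM in at least 4 tumours, and the exact permutation test, two-sided, gave p = 0.571 for H2-Oa and p = 0.371 for H2-Ob. Antisense models also overlap H2-Oa and H2-DMa, and Brd2, on the opposite strand and at a mean of 40.4 FPKM in RI and 37.1 FPKM in ICI, overlaps H2-DMa too, with the limit given for H2-Eb1.

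Ciita, the switch of the pathway (chromosome 16, 10480059 to 10528418), was higher on average in RI without passing. It measured 4.86, 1.79, 3.5 and 0.888 FPKM in RI 1, 2, 4 and 5, against 2.53, 1.43, 2.86 and 1.18 FPKM in ICI 1, 2, 3 and 4. RI 1 and RI 4 exceeded every ICI tumour and RI 5 lay below all of them, so the spread within RI was wider than the distance between the groups. The difference was 0.24 (95% interval −0.56 to 1.03, limma adjusted p = 0.658), and it was −0.02 without RI 1. The table gives 1 value per gene and does not separate the promoters of Ciita.

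**Figure D2:**
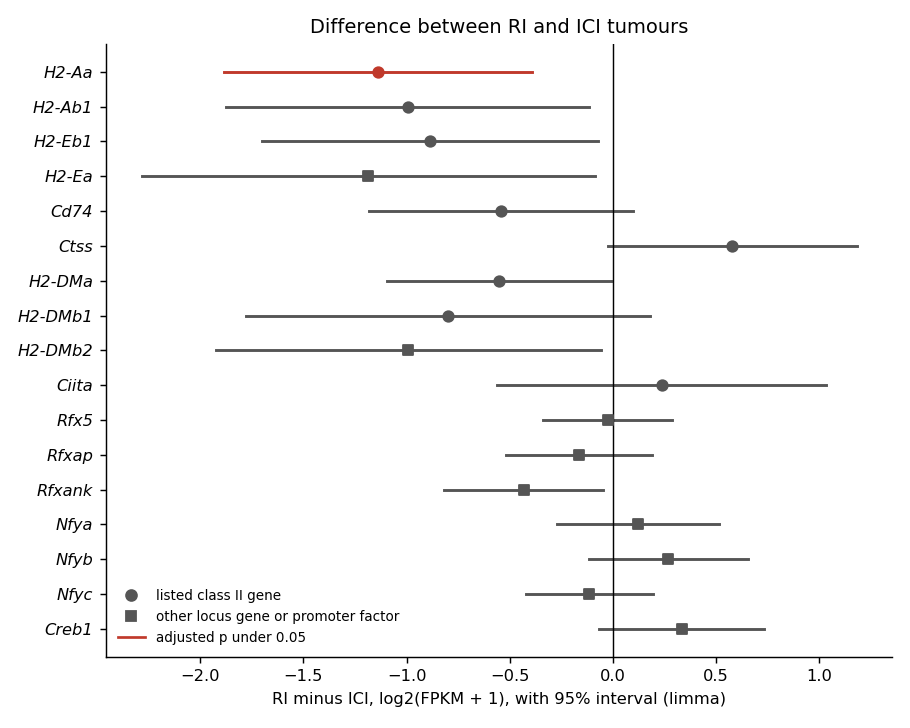
RI minus ICI difference on the log2(FPKM + 1) scale with its 95% interval from limma, for the 8 class II pathway genes tested (circles), H2-Ea, H2-DMb2 and the promoter factors (squares), with zero marked by a vertical line. H2-Aa, in red, is the gene with an adjusted p under 0.05, the other chains lie left of zero with intervals reaching close to it, and Ciita and Ctss lie right of zero with intervals that include it.

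The order of the tumours was shared by many of the genes. RI 2 and RI 5 each lay below the lowest ICI tumour for all 6 of H2-Aa, H2-Ab1, H2-Eb1, H2-DMa, H2-DMb1 and Cd74, RI 4 did so for 3 of the 6 and RI 1 for 0. The order RI 1, RI 4, RI 2, RI 5 from high to low was shared by 5 of the 10 genes, namely H2-Aa, H2-Ab1, H2-Eb1, H2-DMa and Ciita. In the ICI tumours the order ICI 3, ICI 1, ICI 4, ICI 2 was shared by H2-Aa, H2-Ab1, H2-DMa, H2-DMb1 and Cd74, and Ciita ran ICI 3, ICI 1, ICI 2, ICI 4. The highest RI tumour exceeded the lowest by 2.65 times for H2-Aa and by 5.48 times for Ciita, against 1.74 times for H2-Aa and 2.44 times for Ciita among ICI tumours.

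Likeness of profiles was measured as the root-mean-square distance between log2(FPKM + 1) values over the 8 tumours, each gene being centred on its own mean. Measured from the mean profile of H2-Aa, H2-Ab1, H2-Eb1 and Cd74, which spanned 1.97 log2 units, the genes outside that mean ranked 2 (H2-DMb2), 5 (H2-DMb1), 6 (H2-DMa) and 14 (H2-Ea) of 13439 genes tested. Ciita ranked 1932 at a distance of 0.60, and Ctss ranked 11782 at 0.98. The 6 nearest genes outside the pathway and marker lists were Gm44135, Flt3l, Gm49064, Gm49207, Sox15 and Gm18734, at distances of 0.26 to 0.35. Gm44135, at 0 to 1.41 FPKM in RI and 0.830 to 1.70 FPKM in ICI, was close to the filter. Flt3l, the ligand of the dendritic cell growth receptor FLT3, lay at a distance of 0.27. It measured 3.45, 1.78, 2.19 and 1.52 FPKM in RI 1, 2, 4 and 5, against 6.62, 2.94, 5.75 and 4.64 FPKM in ICI 1, 2, 3 and 4. Nearest to the Ciita profile, which spanned 1.64 log2 units, were Batf2, BC023105, Gm31544, F830016B08Rik, Calhm6 and Clec7a, at 0.25 to 0.31. From the Ciita profile H2-DMa ranked 256, Cd74 1982, H2-DMb1 4760, H2-Eb1 6168, H2-Ab1 6695, Ctss 9023 and H2-Aa 9635. A gene that hardly varies also has a limited distance, so a rank alone does not show a shared profile. These distances describe 8 libraries that share the scaling of FPKM, and no test was made of them.

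**Figure D3:**
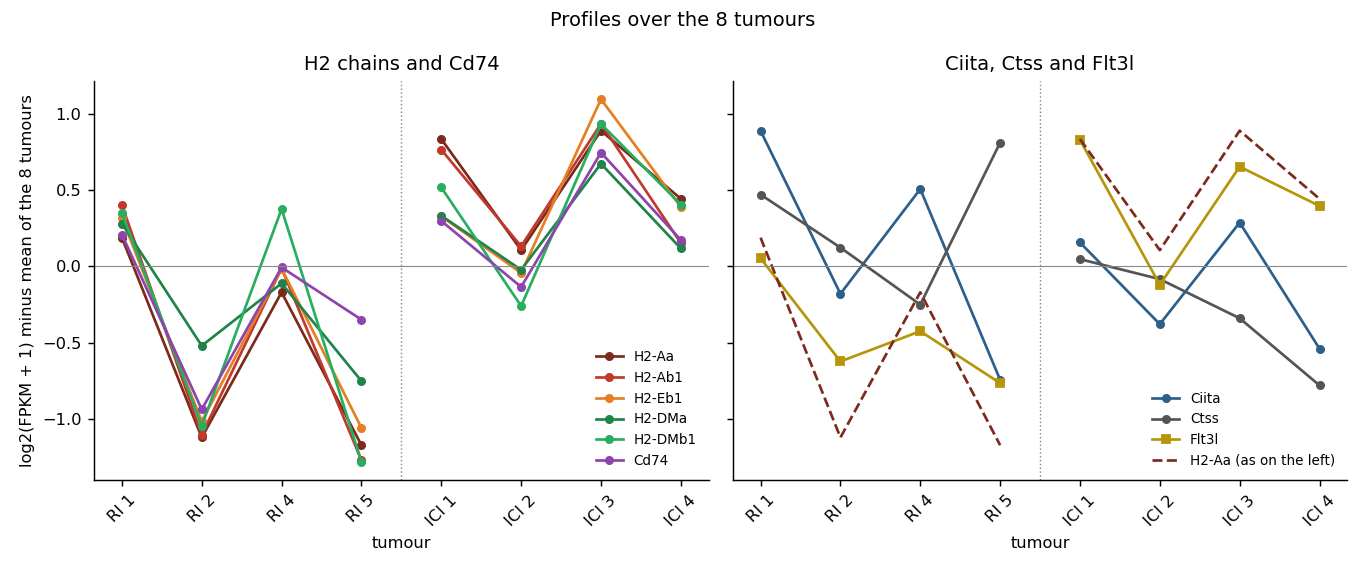
log2(FPKM + 1) minus the gene's mean over the 8 tumours, for H2-Aa, H2-Ab1, H2-Eb1, H2-DMa, H2-DMb1 and Cd74 (left) and for Ciita, Ctss and Flt3l with H2-Aa dashed (right), with lines joining the tumours of a group only to guide the eye. On the left all 6 profiles dip in RI 2 and RI 5 and peak in ICI 3. On the right Ciita has its highest value in RI 1 and Ctss in RI 5.

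Ratios of FPKM within a tumour do not depend on how its library was scaled, and 5 had been chosen for testing. The ratio of Cd74 to H2-Aa was 8.44, 9.68, 9.36 and 15.1 in RI 1, 2, 4 and 5, against 5.69, 7.04, 7.48 and 6.87 in ICI 1, 2, 3 and 4. All RI tumours lay above all ICI tumours, and RI 5 was the highest. The mean log2 ratio was 3.37 ± 0.37 in RI and 2.75 ± 0.17 in ICI (SD, n = 4 each), a difference of 0.62 with p = 0.0286 in the two-sided exact permutation test, the smallest p it can give, and 0.143 after Benjamini-Hochberg adjustment over the 5 ratios. The difference did not pass that adjustment, and with any 1 tumour left out it was 0.44 to 0.72.

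For the other 4 ratios the groups overlapped. The ratio of H2-Eb1 to H2-Aa was 2.13, 2.12, 2.17 and 2.14 in RI 1, 2, 4 and 5, a span far smaller than the 1.36, 1.75, 2.24 and 1.87 of ICI 1, 2, 3 and 4, and the groups overlapped (exact permutation p = 0.143, adjusted 0.357). The ratio of H2-Ab1 to H2-Aa was 1.12 to 1.39 in RI and 0.973 to 1.23 in ICI (exact permutation p = 0.286, adjusted 0.464). That of H2-DMb1 to H2-DMa was 0.745 to 1.6 in RI and 0.940 to 1.38 in ICI (exact permutation p = 0.371, adjusted 0.464). H2-Oa stood at 0.0159 to 0.0737 of H2-DMa in RI and 0.0178 to 0.0613 in ICI (exact permutation p = 0.886, adjusted 0.886).

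A further ratio, chosen after the values were seen and so given without a test, set the summed chains (H2-Aa, H2-Ab1 and H2-Eb1) against Ciita. It was 51.8, 52.9, 55.8 and 101 in RI 1, 2, 4 and 5, against 122, 146, 143 and 218 in ICI 1, 2, 3 and 4. The groups did not overlap. The tumour with the least Ciita had the highest ratio in each group, but Ciita is the divisor, so a low value raises the ratio by arithmetic. RI 1 and RI 2, with 252 and 94.8 FPKM of summed chains, had ratios of 51.8 and 52.9.

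**Figure D4:**
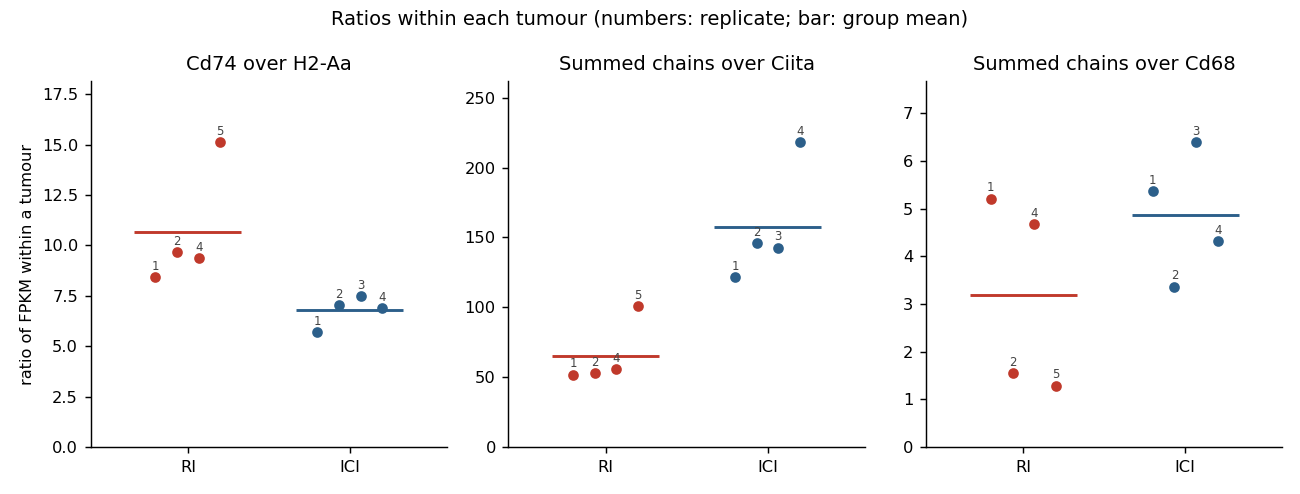
Ratios of FPKM within each tumour, for Cd74 over H2-Aa (left), the summed H2-Aa, H2-Ab1 and H2-Eb1 over Ciita (centre) and the same sum over the macrophage gene Cd68 (right), with RI in red, ICI in blue, the replicate number beside each point and a bar at the group mean. The first ratio is higher in all RI tumours (at least 8.44 against at most 7.48), the second is lower in all of them (at most 101 against at least 122), and the third overlaps between the groups.

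The factors that sit on class II promoters did not pass in the reported fit. Of 7 (RFX and NF-Y subunits and Creb1) 0 passed in limma, with 1 at an unadjusted p under 0.05, and the median difference was −0.03. Rfx5, the large RFX subunit, measured 6.85, 4.97, 4.70 and 5.51 FPKM in RI 1, 2, 4 and 5, against 5.50, 5.80, 6.13 and 4.93 FPKM in ICI 1, 2, 3 and 4 (limma adjusted p = 0.911). Rfxank, another RFX subunit, was lower in all RI tumours (1.5, 1.68, 1.00 and 1.40 FPKM in RI 1, 2, 4 and 5, against 3.09, 2.00, 2.01 and 1.89 FPKM in ICI 1, 2, 3 and 4) without passing (limma adjusted p = 0.105), but passed with median centring (−0.48, adjusted p = 0.0393).

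Upstream of Ciita, the interferon gamma receptor kinases Jak1 and Jak2 rose. Of 12 genes in that list 10 were tested, of which 2 rose, 0 fell and 8 did not pass, with 4 at an unadjusted p under 0.05. Against the 11.1% of all genes tested that rose, 2 of 10 is near the background. Jak2 measured 29.9, 27, 27.2 and 29.2 FPKM in RI 1, 2, 4 and 5, against 13.5, 16.2, 21.1 and 12.2 FPKM in ICI 1, 2, 3 and 4 (log2 difference 0.84, limma adjusted p = 0.0173). Jak1 rose by 0.49 (limma adjusted p = 0.0339), and all RI tumours lay above all ICI tumours for both kinases. The call of Jak2 was lost without ICI 4, that of Jak1 without any 1 of ICI 2, ICI 3, ICI 4, RI 1, RI 2 or RI 5, and both with no filter or with TPM. With length and GC trends removed the difference of Jak1 was 0.24 and did not pass (adjusted p = 0.123). The interferon regulatory factors Irf1 and Irf8 differed by 0.19 (limma adjusted p = 0.671) and 0.39 (adjusted p = 0.257). Ifng itself was below the filter, at 1.31, 0.480, 0.149 and 0.109 FPKM in RI 1, 2, 4 and 5, against 0.563, 0.613, 0.463 and 0.508 FPKM in ICI 1, 2, 3 and 4 (exact permutation p = 0.886). RI 1, the RI tumour with the most class II, had the most Ifng of the 8, and RI 4 and RI 5 had the least.

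In the endosome, 0 of 10 proteases and processing genes passed in limma, with 4 at an unadjusted p under 0.05 and 3 whose groups did not overlap, as for 27.9% of all genes tested. Legumain (Lgmn), an asparaginyl protease, was 126 to 242 FPKM in RI and 59.2 to 120 FPKM in ICI (difference 0.88, limma adjusted p = 0.0513). Ctsb was 171 to 306 FPKM in RI and 68.0 to 159 FPKM in ICI (adjusted p = 0.0686), and the protease inhibitor Cst3 was 96.8 to 166 FPKM in RI and 184 to 292 FPKM in ICI (adjusted p = 0.0561). These counts hold for the reported fit: Lgmn passed with 6 changes of filter, scaling or model (adjusted p 0.00596 to 0.0446), Cst3 with 4 (0.0224 to 0.0462) and Ctsb with rescaling (0.0101) and voom (0.0346). Ctsc differed by 1.04 (adjusted p = 0.0797), and it passed with the rescaling (1.355, limma adjusted p = 0.0257) and without RI 5 (1.37, adjusted p = 0.0401). Ctsl differed by 0.38 (adjusted p = 0.479) and Ifi30, the lysosomal thiol reductase GILT, by −0.02 (adjusted p = 0.964). None of the 3 MARCH ligases measured, of which Marchf1 is known for removing class II from the surface, passed in limma, and 0 had an unadjusted p under 0.05.

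On the T cell side, Cd4, the coreceptor that binds class II, was below the filter, at 0.255 to 0.578 FPKM in RI and 0.291 to 0.791 FPKM in ICI (exact permutation p = 0.600). Lag3, an inhibitory receptor that also binds class II, was 2.15 to 3.46 FPKM in RI and 1.36 to 3.05 FPKM in ICI (limma adjusted p = 0.456). The costimulatory genes Cd80, Cd86 and Cd40 differed by 0.04, 0.14 and 0.11 (limma adjusted p = 0.913, 0.755 and 0.808). Of 9 genes in this list 5 were tested and 0 passed in limma, with 0 at an unadjusted p under 0.05. Below the filter, the T cell costimulatory receptors Icos (0.780 to 1.23 FPKM in RI, 0.304 to 0.575 FPKM in ICI) and Cd28 (0.264 to 0.391 FPKM in RI, 0.138 to 0.218 FPKM in ICI) were higher in all RI tumours, each with an unadjusted exact permutation p of 0.0286. Both were named after their values were seen, and the groups did not overlap for 27.9% of all genes tested. The T cell markers went the other way, with all 3 tested lower on average in RI. Of these Trac fell, at 1.46 to 3.53 FPKM in RI and 3.70 to 7.01 FPKM in ICI (limma adjusted p = 0.0211).

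The 7 H2 genes of the list lie within 224.3 kb of chromosome 17 (34092340 to 34316674, GRCm38), interleaved with genes of the class I pathway. Of 12 other rows of the table in that interval 8 were tested and 0 passed in limma, with 3 higher, 5 lower and a median difference of −0.22. Tap1, the peptide pump of the class I pathway that lies between H2-DMb1 and H2-Ob, differed by 0.62 (limma adjusted p = 0.115). Over the class I pathway, 1 of 13 genes rose, 0 fell and 12 did not pass, with a median of 0.03. Since 11.1% of all genes tested rose, this count is near the background. The gene that rose was Erap1, which trims peptides (difference 1.01, limma adjusted p = 0.0263), a call lost without any 1 of ICI 4, RI 1, RI 2 or RI 4, with no filter (adjusted p = 0.0890), with TPM (0.124) and without both ICI 1 and RI 4 (0.0683). In the same list Tapbp differed by 0.77 (adjusted p = 0.0568, and 0.0369 with upper-quartile scaling), H2-K1 by 0.02 (adjusted p = 0.959), B2m by −0.25 (adjusted p = 0.393) and the class I coactivator Nlrc5 by 0.03 (adjusted p = 0.927), and the sign of H2-K1, B2m and Nlrc5 changed under some scalings.

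Among markers of the cells that carry class II, those of macrophages were the most abundant. Of 9 macrophage and monocyte markers 1 rose and 8 did not pass, while 11.1% of all genes tested rose. The summed level of the 9 was 326 to 785 FPKM in RI and 341 to 431 FPKM in ICI. The one that rose was Adgre1 (F4/80), at 6.14, 9.02, 6.94 and 8.64 FPKM in RI 1, 2, 4 and 5, against 1.15, 1.13, 1.47 and 1.12 FPKM in ICI 1, 2, 3 and 4 (limma adjusted p = 0.00158), while Csf1r differed by 0.31 (adjusted p = 0.353) and Cd68 by −0.16 (adjusted p = 0.559). RI 5, with the least H2-Aa, had the highest macrophage sum, most of it from C1qa, C1qb and C1qc (354, 213 and 118 FPKM), and the lowest Ccr2 of the 8 tumours (0.288 FPKM). Summed chains per Cd68 were 5.21, 1.55, 4.67 and 1.29 in RI 1, 2, 4 and 5, against 5.37, 3.37, 6.40 and 4.32 in ICI 1, 2, 3 and 4. Per Csf1r they were 4.47 to 16.7 in RI and 15.7 to 38.3 in ICI, so that the groups overlapped for both ratios. Per Adgre1, the marker that rose, they were 41.0, 10.52, 28.1 and 10.4 in RI 1, 2, 4 and 5, against 267, 186, 277 and 230 in ICI 1, 2, 3 and 4, without overlap. Here Adgre1 is the divisor and did not itself overlap between the groups, so its rise lowers the ratio in RI by arithmetic.

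Dendritic and B cell markers were scarce. The 9 dendritic cell markers summed to 22.1, 10.6, 10.03 and 7.31 FPKM in RI 1, 2, 4 and 5, against 20, 12.1, 11.2 and 10.8 FPKM in ICI 1, 2, 3 and 4, with 3 of them tested, 0 passing in limma and 0 at an unadjusted p under 0.05. RI 1, the RI tumour with the most class II, also had the highest dendritic sum and RI 5 the lowest. This order rests on Itgax, which alone gave 14.9, 5.43, 7.59 and 1.96 FPKM in RI 1, 2, 4 and 5. In ICI tumours Itgax was 4.90 to 6.04 FPKM. The 7 B cell markers summed to 1.44 to 4.38 FPKM in RI, against 23.3 FPKM in ICI 1 and 2.90 to 5.66 FPKM in the other ICI tumours, with Ms4a1 and Fcer2a among those at 0 in some tumours. The part of these cells in the class II values was not tested. Of 4 pan-leukocyte genes 1, Laptm5, rose (limma adjusted p = 0.0152), and the other 3 were lower on average without passing. The median difference of the 4 was −0.41. Ptprc was at 1.87 to 4.30 FPKM in RI, 22.3 FPKM in ICI 1 and 2.69 to 3.38 FPKM in the other ICI tumours (adjusted p = 0.484). Coro1a was lower in all RI tumours, at 12.1 to 28.3 FPKM, against 296 FPKM in ICI 1 and 30.3 to 42.1 FPKM in the other ICI tumours (adjusted p = 0.116). The groups did not overlap for 27.9% of all genes tested. Of the other marker lists, T cell genes had 0 rises and 1 fall among 3 tested, and neutrophil genes 0 and 2 among 5. Tumour epithelium had 0 and 0 among 4, endothelium 0 and 0 among 3, and fibroblast genes 3 and 0 among 6. At an unadjusted limma p under 0.05 these lists held 1, 5, 1, 0 and 4 genes, in that order. Over all genes tested 11.1% rose, 6.6% fell and 35.9% had an unadjusted p under 0.05.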

How the data were processed

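The deposited values were FPKM, fragments scaled by gene length and library size, in 1 table with 1 column per tumour. Per the submitters' processing notes HISAT2 and GRCm38 (mm10) were used, and no version, counting program, strand setting or annotation is named in any source used. Groups and replicate numbers came from the titles. Although 3 replicates a group are stated in the design, the labels list 4, and all were used.

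The 13439 genes reaching 1 FPKM in 4 or more tumours were tested for RI minus ICI on log2(FPKM + 1), which understates the change of low genes, with limma 3.58.1 in R 4.3.3 (two-sided, lmFit, then eBayes with its trend and robust options). A Benjamini-Hochberg adjusted p under 0.05 over all genes tested was called. Genes below the filter and ratios were compared by exact permutation tests, two-sided, over 70 regroupings. Fragments were recovered from the steps between low values and exon lengths of GENCODE M21, to which 31407 of the 32098 rows matched by identifier. With a tolerance of 0.05, whole fragments resulted for 98.7% to 98.8% of low values. The test was checked on simulated data in which each gene was drawn independently. Effects of a whole library, such as those of ICI 1 and RI 4, were not simulated, so the check does not cover them.

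The 10 genes and all lists were chosen with earlier results of these data known. The 123 genes of the lists were all found by symbol. Named are all 10, up to 4 genes of each further list with the smallest unadjusted p, a fixed set that includes Rfx5, Ifi30, Cd4, Ifng and Nlrc5, and the 6 genes nearest to each of 2 profiles. Cell markers such as Adgre1, Csf1r, Cd68, Itgax, Trac, Laptm5, Ptprc, Coro1a, Epcam, Krt8 and Krt18 were named after their values were seen. Coordinates are 1-based. Some genes of the lists are not reported here by name.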

Additional observations from a re-analysis of the deposited data

Results flagged for a closer look

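In a group of 4 tumours, a tumour was marked when its gap to the nearest other was too large a part of its group's range by Dixon's criterion at 95%. Chance marks about 1 in 20 groups, 94 groups were looked at, and 10 values were marked. These groups did not cover every gene of the lists. H2-Ob in ICI 1 was 1.72 FPKM against at most 0.192 FPKM in the other ICI tumours, a gap of 0.952 of the range. Also in ICI 1, Ptprc was 22.3 FPKM against at most 3.38 FPKM (gap 0.965), Rfxank 3.09 FPKM against at most 2.01 FPKM (gap 0.898) and Cd4 0.791 FPKM against at most 0.358 FPKM (gap 0.866). In ICI 3, H2-Ea was 329 FPKM against at most 167 FPKM in the other ICI tumours (gap 0.878) and Adgre1 1.47 FPKM against at most 1.15 FPKM (gap 0.900). In ICI 4, Cd80 was 0.597 FPKM against at least 1.17 FPKM (gap 0.893). Among RI tumours, Ifi30 was 49.1 FPKM in RI 4 against at least 84.6 FPKM (gap 0.948), Ctsl 556 FPKM in RI 5 against at most 258 FPKM (gap 0.911) and Irf8 27.9 FPKM in RI 1 against at most 16.5 FPKM (gap 0.845). H2-Aa, H2-Ab1, H2-Eb1, Cd74, H2-DMa, H2-DMb1, Ciita and Ctss had no such tumour in either group.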

How the results depend on the processing

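H2-Aa, H2-Ab1, H2-Eb1, H2-DMa, H2-DMb1 and Cd74 were lower in RI under all 21 other settings, and Ctss was higher under all of them. The count of class II genes called lower was 1 and became 0 with no filter, TPM, rescaling without mitochondrial and rRNA-like rows, limma voom on recovered fragments and without both ICI 1 and RI 4, and ran from 0 to 1 with each tumour left out. The count called higher was 0 and became 1 (Ctss) with that rescaling and without both tumours. Over all genes the count was 2373, against 241 with no filter, 280 with TPM, 4967 with the rescaling, which moved the median difference of all genes to 0.285, and 336 to 2693 with 1 tumour left out, with the fewest when ICI 4 (336), RI 2 (672), RI 1 (999) or RI 5 (1017) was the one omitted, and 3103 without both ICI 1 and RI 4. Of the calls 62.6% were up, against 53.4% with upper-quartile scaling, 48.0% with median centring, 53.7% with length and GC trends removed and 90.0% with the rescaling. Same-numbered tumours did not deviate together (correlations across genes −0.124 to −0.0923 for the 3 shared numbers). Only 3 pairs could be compared and ICI 1 and RI 4 stood apart, so whether the numbers pair tumours cannot be decided from this. With the replicate number as a block 22 genes were called and 0 of the class II genes, and with the block and length and GC trends removed 3 genes and 0. In these fits ICI 3 and RI 5 have no partner, so the difference rests on the 3 shared numbers and much of the power is lost. The difference in the log2 ratio of H2-Oa to H2-DMa was −0.06 and became 0.38 with FPKM + 1, ran from −0.42 to 0.32 with 1 tumour left out and was 0.57 without both ICI 1 and RI 4. Sign changes were otherwise among genes that did not pass in the reported fit. With TPM, the rescaling, the block and voom Rfx5 was at 0.064, 0.26, 0.009 and 0.017. With TPM, the rescaling, trends removed, block with trends removed and voom Ifi30 was at 0.073, 0.31, 0.27, 0.26 and 0.032. With trends removed, and with the block as well, Nlrc5 was at −0.21 and −0.049, Cd80 at −0.057 and −0.004, B2m at 0.061 and 0.033, and Cd68 at 0.10 and 0.033, while Ctsl was at −0.11 with both. With the rescaling B2m was at 0.084 and Cd68 at 0.17. With median centring Nlrc5 was at −0.014, Cd80 at −0.008 and H2-K1 at −0.026, and with upper-quartile scaling H2-K1 at −0.009. Without both ICI 1 and RI 4, Rfx5 was at 0.028, Ifi30 at 0.22 and Ptprc at 0.045. With 1 tumour left out the range was −0.02 to 0.53 for Ciita, −0.12 to 0.034 for Rfx5, −0.19 to 0.18 for Ifi30, −0.08 to 0.18 for Cd80, −0.13 to 0.39 for Cd86, −0.13 to 0.34 for Cd40, −0.039 to 0.41 for Irf1, −0.15 to 0.15 for Nlrc5, −0.10 to 0.14 for H2-K1 and −0.84 to 0.044 for Ptprc. The causes were not tested. Depth limits H2-Oa and H2-Ob, read from 11 to 58 fragments outside the 305 of H2-Ob in ICI 1.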
